A study of Mus musculus with 24 samples.

Results

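BXH9 is a recombinant inbred (RI) mouse strain, and its lungs are described here against the lungs of the other RI strains of the same set. The BXH9 lungs were found by title: 2 of the 24 arrays carry the strain's name. They were set against the 16 arrays of the other 8 BXH strains (BXH2, BXH4, BXH6, BXH7, BXH8, BXH10, BXH14 and BXH19, 2 arrays each), and then against the inbred progenitors, B6 (the C57BL/6J strain) and C3 (C3H/HeJ), with 2 arrays each. All mice were untreated males from the Jackson Laboratory aged 8 weeks, and 2 arrays of the F1 hybrid also entered the fit. Each array measured RNA of whole lung with Affymetrix Mouse 430A probe sets, and every value below is the deposited signal or a difference of log2(signal + 16). The labels give n = 1 for each array without stating outright that the 2 arrays of a strain are 2 animals. P-values therefore measure only how far these samples spread, and that spread may be technical.

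An RI strain is made by crossing 2 inbred strains and inbreeding the offspring until nearly every locus is fixed for the allele of one progenitor. A gene whose signal follows a nearby allele usually lies at the level of one progenitor or the other, while a gene beyond both progenitors has a level that neither parent shows. Whole mouse lung also holds striated muscle: heart muscle runs from the left atrium along the pulmonary veins, and skeletal or oesophageal muscle and squamous epithelium can be dissected with the lung.

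The tissue label was checked against 14 measured markers of alveolar type 2 cells, the cells that make surfactant. Their tested members averaged 12.69 and 12.66 on the log2 scale on the BXH9 arrays, against 12.49 to 12.91 on the other RI arrays, and no measured marker was at 0. Both BXH9 arrays correlated more closely with each other (Pearson's r = 0.971 over the tested genes) than with any other array, where the highest value was 0.966. They nevertheless stood apart from each other in muscle and epithelial genes. BXH9-1 carried more signal of heart genes. Nppa, which encodes atrial natriuretic peptide, had a signal of 8715 on BXH9-1 and 143.2 on BXH9-2, against a median of 301.3 and a range of 100 to 4094 on the other RI arrays. Myh6, the heavy chain of atrial and adult ventricular myosin, had 5843 and 1830 on the 2 BXH9 arrays, against 1274 to 2811 on the other RI arrays. BXH9-2 carried more signal of squamous epithelium. Krt4, a keratin of oesophageal epithelium, had 310.2 on BXH9-1 and 3225 on BXH9-2, against a median of 308.8 and a range of 22 to 6689 on the other RI arrays. The counts of genes that differed, of genes beyond both progenitors and of muscle list members are therefore also given without each BXH9 array.

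The mean of each muscle list shows the same split. The skeletal muscle list averaged 10.88 on BXH9-1 and 11.51 on BXH9-2, against a median of 8.30 and a range of 7.20 to 11.02 on the other RI arrays. Only BXH8-1, the highest of the 16, lay above BXH9-1. B6 averaged 10.21 and 10.17 on this list, also above the median of the other RI arrays. C3 averaged 7.41 and 10.10, so the level differed widely between arrays of the same strain. The list of cardiac muscle genes of the pulmonary veins averaged 11.58 on BXH9-1 and 10.11 on BXH9-2, against a median of 9.85 and a range of 9.45 to 10.82. BXH9-1 was above all 16 other RI arrays for this list, and BXH9-2 was not. All 20 measured skeletal markers were above the median of the other RI arrays on both BXH9 arrays. All 14 cardiac markers were above it on BXH9-1, and 8 were on BXH9-2. No marker of the 3 lists was at 0 on a BXH9 array. In whole tissue, more cells of a type and more RNA per cell cannot be told apart.

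**Figure D1:**
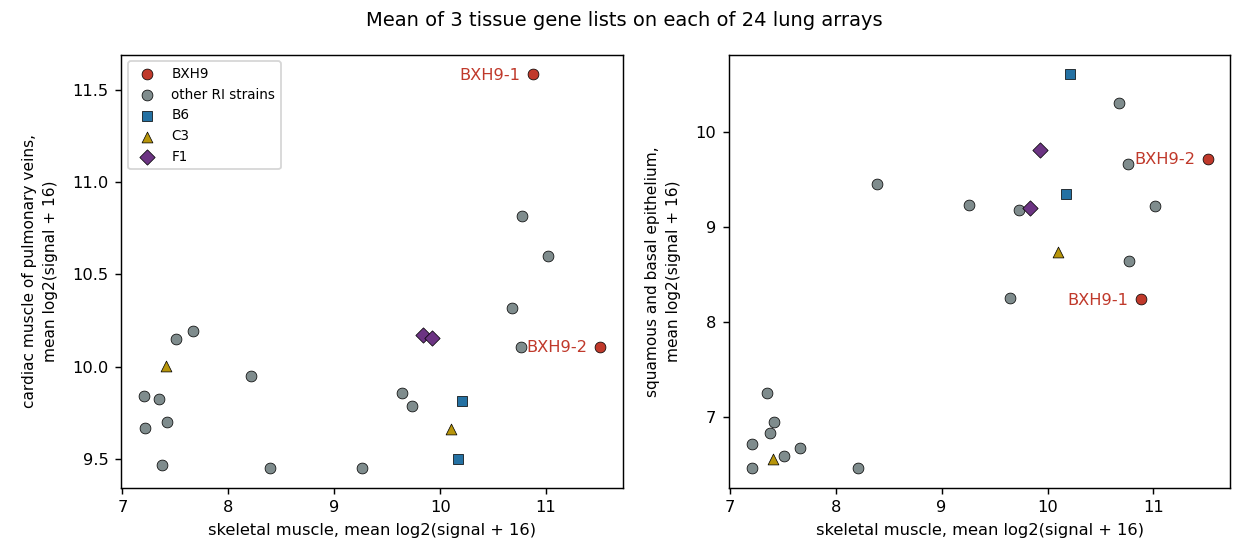
Each point is 1 of 24 arrays. The horizontal axes give the mean log2(signal + 16) of the tested skeletal muscle genes, and the vertical axes that of the cardiac muscle genes (left) or the squamous and basal epithelial genes (right). BXH9-1 has the highest cardiac mean (11.58) and BXH9-2 the highest skeletal mean (11.51), while the epithelial mean is 8.24 on BXH9-1 and 9.72 on BXH9-2.

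Against the other RI strains, 103 of 8281 tested genes were higher in BXH9 (1.24%) and 69 were lower (0.833%), 172 in all (2.08%), by limma at an adjusted p below 0.05. The genes that rose were led by genes of striated muscle, class I histocompatibility genes and a few genes with 2 separate levels among the strains. No list held more than 2 of the genes that fell. The call holds unevenly for the 2 arrays: without BXH9-1 it gave 17 higher and 6 lower genes, and without BXH9-2 it gave 58 higher and 28 lower genes. Called in the full fit and again without either BXH9 array in turn were 13 of the 103 higher genes (Rpgrip1, Mb, Pvalb, Nme7, Ttn, Ckmt2, Pttg1, H2-D1, Cox6a2, Myom1, Slc15a2, H2-K1 and Pdxdc1) and 3 of the 69 lower genes (Gprc5b, Kif5b and Erdr1). Every other gene named below as higher or lower lost its call without at least 1 of the 2 arrays. Both BXH9 arrays lay above all 16 other RI arrays for 118 genes (1.42% of those tested) and below all of them for 125 (1.51%). Among the called genes this was so for 41 of the 103 higher and 31 of the 69 lower.

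Of the skeletal muscle list, 10 of 16 tested members were higher in BXH9 and none was lower, with a median difference of 1.95 beside a median of -0.0006 for all tested genes. Without BXH9-1 the count was 4, and without BXH9-2 it was also 4. Myl1, a light chain of fast skeletal myosin, had the largest difference of any called gene. Its signal was 3088 and 5712 on the BXH9 arrays, against a lowest value of 15, a median of 231.8 and a highest of 5700 on the other RI arrays. The groups overlapped, since both BXH8 arrays and 1 BXH2 array were above the lower BXH9 array. The difference was 3.61 on the log2 scale (SE 0.84, limma adjusted p = 0.0291). Neither progenitor differed from BXH9 past the threshold for Myl1: B6 had 2219 and 2677, and C3 had 159.6 and 1854. Atp2a1, the calcium pump of fast muscle, had 1490 and 3793 in BXH9, against 314.7 to 1920 in the other RI strains. Its difference was 1.86 (SE 0.31, limma adjusted p = 0.00199), and it was 1.19 without BXH9-2 (adjusted p = 0.146). Ckm, the creatine kinase of muscle, was higher by 1.73 (SE 0.39, limma adjusted p = 0.0207) and lay at the B6 level. The mean of the whole skeletal list was also high on the B6 arrays, at 10.21 and 10.17. Tnnt3, the fast skeletal troponin T, had 1582 and 3541 in BXH9, against a median of 159.8 and a highest value of 2364 in the other RI strains. Its difference of 3.03 did not pass the test (SE 0.78, limma adjusted p = 0.051).

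Of the cardiac list, 4 of 14 tested members were higher in BXH9 (Ttn, Sln, Hspb7 and Actc1) and none was lower, with a median difference of 0.81. This count was 11 without BXH9-2 and 1 without BXH9-1, so it depended on which BXH9 array was kept. It was 2 without any 1 of 12 other arrays (both of BXH10, B6 and F1, BXH4-1, BXH6-2, BXH7-1, BXH8-2, BXH14-2 and BXH19-1). Sln, sarcolipin, an inhibitor of the calcium pump in atrial and slow muscle, had 5533 and 2448 in BXH9, against a median of 1180 and a highest value of 2796 in the other RI strains. Its difference of 1.56 (limma adjusted p = 0.00155) came to 0.98 without BXH9-1 (adjusted p = 0.25). Casq2, the calsequestrin of heart and slow muscle, had 998.4 and 558.1 in BXH9, against 140.4 to 578.2. Its difference was 1.63 (SE 0.33, limma adjusted p = 0.0122). Of the oxidative phosphorylation list, 2 of 23 tested members were higher (Cox5a by 0.49 and Cycs by 0.60), and all 23 differences were above 0, with a median of 0.29. Neither Cox5a nor Cycs was called when BXH9-1 or BXH9-2 was left out, although their differences stayed between 0.49 and 0.63. With the means of both muscle lists as covariates, a fit described below, the differences of Cox5a and Cycs came to 0.25 and 0.23, and neither was called. Cycs, cytochrome c, had 3825 and 3647 in BXH9, against 1788 to 3219 in the other RI strains, with no overlap.

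The genes beyond both progenitors were taken as those that differed in the same direction from the other RI strains, from B6 and from C3, each by limma at an adjusted p below 0.05. BXH9 was higher than all 3 for 26 genes (0.314% of those tested) and lower than all 3 for 11 (0.133%). Against B6 alone, 77 genes were higher in BXH9 (0.93%) and 71 lower (0.857%). Against C3 alone, 165 were higher (1.99%) and 131 lower (1.58%). Of the 26 higher genes, 6 stood in the skeletal or cardiac muscle lists (Ckmt2, Cox6a2, Hspb7, Pvalb, Tcap and Ttn). The other 20 included Mb, Myom1, Myoz2, Ldb3, Hrc, Cox7a1 and Fabp3, which are known as genes of striated muscle and were not in these lists. None of the 11 lower genes was in either list. The higher count was 6 without BXH9-1 and 31 without BXH9-2, and it was also sensitive to the progenitor arrays, with 16 without B6-1 and 10 without B6-2. The lower count was 1 without BXH9-1, 4 without B6-2, 6 without B6-1, and 7 without each of BXH6-2, C3-1, F1-1 and F1-2.

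Mb encodes myoglobin, the oxygen-binding protein of heart and oxidative muscle. Its signal was 6055 and 6280 in BXH9, against a lowest value of 587, a median of 1220 and a highest of 5946 in the other RI strains, 2010 and 1995 in B6, and 1389 and 2343 in C3. Both BXH9 arrays were above every array of the other RI strains and of both progenitors, with BXH8-1 close below. The difference was 2.09 from the other RI strains (SE 0.22, limma adjusted p = 2.28e-05), 1.61 from B6 (adjusted p = 0.00524) and 1.76 from C3 (adjusted p = 0.0018). A second, dim probe set of Mb gave -0.05, and the mean of both gave 1.02 (adjusted p = 0.000693). Ttn encodes titin, the spring of the sarcomere. It had 2397 and 2618 in BXH9, against 408.7 to 2070 in the other RI strains, with no overlap. Its difference of 1.79 (SE 0.18, limma adjusted p = 1.65e-05) was matched by 2.16 on a second probe set. Pvalb, parvalbumin, a calcium buffer of fast fibres, had 425.5 and 1115 in BXH9, against 101 to 419.7 in the other RI strains. The lower BXH9 array was just above the highest other RI array, which was BXH2-2. Its difference was 2.04 (SE 0.27, limma adjusted p = 0.00031).

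Several of the genes beyond both progenitors, such as Ckmt2, Cox6a2 and Cox7a1, encode muscle forms of mitochondrial proteins. Ckmt2, the mitochondrial creatine kinase of striated muscle, had 1100 and 1768 in BXH9, against 252 to 1425 in the other RI strains, 295.1 and 222.7 in B6, and 409.8 and 380.7 in C3. Only BXH8-1 overlapped with BXH9. Cox6a2, a muscle subunit of cytochrome c oxidase, had 2793 and 2912, against 722.9 to 2251, with no overlap. Cox7a1, another muscle subunit of that enzyme, had 672.6 and 585.6, against 82.8 to 478.9, again with no overlap. Fabp3, the fatty acid binding protein of heart and muscle, had 1261 and 1570 in BXH9, against 398.2 to 1066 in the other RI strains. Their differences from the other RI strains were 1.68, 1.31, 1.52 and 1.19. Tcap, a titin-binding protein of the Z-disc, was the gene farthest above the nearer progenitor, by 1.98. It had 2897 and 2316 in BXH9, against 620 to 2954 in the other RI strains, 494 and 453.8 in B6, and 608 and 684.7 in C3. Tcap thus overlapped with the other RI strains while lying above every progenitor array. The median of the other RI arrays, 1194, was also above every progenitor array. BXH9 differed from the other RI strains by 0.96, less than from either progenitor.

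**Figure D2:**
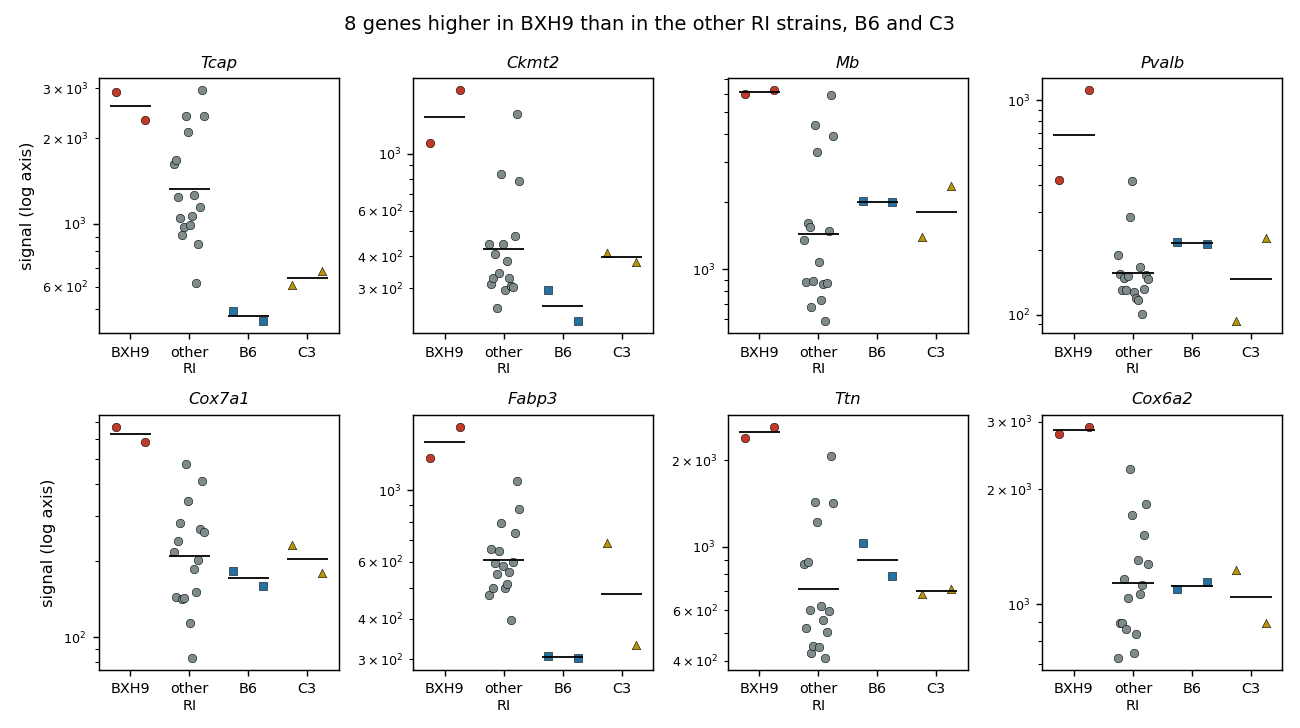
Each panel shows 1 gene on a log axis of signal, each point is 1 array, and the bar is the mean on the log2(signal + 16) scale. For Mb, Ttn, Pvalb, Cox6a2, Cox7a1 and Fabp3 both BXH9 arrays lie above all 16 other RI arrays, and for Tcap and Ckmt2 the groups overlap.

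The fit was repeated with the muscle lists as covariates. With the mean of the skeletal list on each array as a covariate, 30 genes were higher and 16 lower in BXH9. With the means of the skeletal and cardiac lists as 2 covariates, 10 were higher and 4 lower, and beyond both progenitors 3 were higher and 1 was lower. Of the 172 genes called in the full fit, 8 higher and 2 lower genes were called again with both covariates. Rpgrip1, Nme7, H2-D1, H2-K1, Pdxdc1, Srrm2, Pvalb and Atp2a1 were higher, and Kif5b and Tmem87a were lower. Atp2a1, however, lost its call with the skeletal covariate alone. The differences of muscle genes did not change alike in the fit with both covariates. That of Myl1 came to 0.34 and that of Sln to 0.22. Mb, which is in neither list, differed by 1.13 (adjusted p = 0.276). Fabp3, also in neither list, differed by 1.46, and Cox6a2 by 1.35, neither smaller than before, yet both lost the call (adjusted p = 0.111 and 0.0594). Genes outside the muscle lists did so too: Erdr1 differed by -1.63, Tmem71 by -1.47 and Baiap2l1 by 0.80 (limma adjusted p = 0.152, 0.178 and 0.473). A lost call in this fit therefore does not by itself show a smaller difference. Myl1, Cox6a2, Pvalb and Atp2a1 are members of the skeletal list and Sln of the cardiac list, so each of these was adjusted by a mean that contains it.

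The promoters of the muscle genes are shown for those that hold an E-box of the letters CAGCTG, a sequence that muscle-determining factors of the MyoD family are known to bind. The letters read the same on both strands, and each window runs from 250 bases before to 50 bases after the start of the gene in RefSeq (build GRCm38.p6). It is the sequence of C57BL/6J, so it does not show BXH9's own alleles. The 12 largest increases and the 8 higher genes farthest beyond both progenitors held 13 muscle genes, and muscle genes named elsewhere in the text were not searched. Of these 13, 10 had a window, and 5 of the 10 held the letters (Myl1, Mb, Atp2a1, Ckm and Ckmt2), while 18.3% of all 27025 genes with a window did. These 13 include Mb, Casq2, Cox7a1 and Fabp3, which were added after their values were seen, and a match is a description of the letters only. The 3 windows printed are those of Mb, Ckmt2 and Atp2a1, all on the minus strand, 5′ to 3′, with the 6 letters in capitals. They lie at chr15:77022738-77023037, chr13:91876836-91877135 and chr7:126463024-126463323.
Mb: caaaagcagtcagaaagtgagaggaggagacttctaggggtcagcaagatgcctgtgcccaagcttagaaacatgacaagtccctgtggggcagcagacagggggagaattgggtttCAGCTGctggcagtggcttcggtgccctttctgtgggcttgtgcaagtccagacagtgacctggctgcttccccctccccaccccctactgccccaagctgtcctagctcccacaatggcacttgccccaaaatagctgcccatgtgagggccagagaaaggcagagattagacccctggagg
Ckmt2: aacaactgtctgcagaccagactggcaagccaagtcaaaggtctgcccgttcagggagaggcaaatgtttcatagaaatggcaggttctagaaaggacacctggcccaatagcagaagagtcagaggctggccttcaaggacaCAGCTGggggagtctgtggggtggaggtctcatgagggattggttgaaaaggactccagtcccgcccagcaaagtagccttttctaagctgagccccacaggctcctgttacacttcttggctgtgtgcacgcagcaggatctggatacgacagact
Atp2a1: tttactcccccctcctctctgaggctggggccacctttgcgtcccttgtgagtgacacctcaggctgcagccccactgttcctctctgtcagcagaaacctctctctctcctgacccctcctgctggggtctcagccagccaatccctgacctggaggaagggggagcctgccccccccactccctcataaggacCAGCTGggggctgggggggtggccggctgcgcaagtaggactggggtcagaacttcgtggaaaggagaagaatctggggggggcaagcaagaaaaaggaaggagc
The capitals begin 133 bases before the start of Mb, 107 before that of Ckmt2 and 55 before that of Atp2a1.

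The 172 called genes were then sorted by how far BXH9 lay from each progenitor, with a margin of 0.5 on the log2 scale. Of the 103 higher genes, 52 lay outside both progenitors, 33 at the B6 level, 8 at the C3 level and 10 at the level of both. Of the 69 lower genes, 34 lay outside both, 11 at the B6 level, 20 at the C3 level and 4 at both. None of the called genes lay between the progenitors, a class that was rare among genes not called too (23 of 8109, 0.284%). Genes that were not called were mostly at both levels (6945 of 8109, 85.6%). Of them, 6.26% lay at the B6 level, 4.55% at the C3 level and 3.26% outside both. The classes carry no test, and they shift with the margin.

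**Figure D3:**
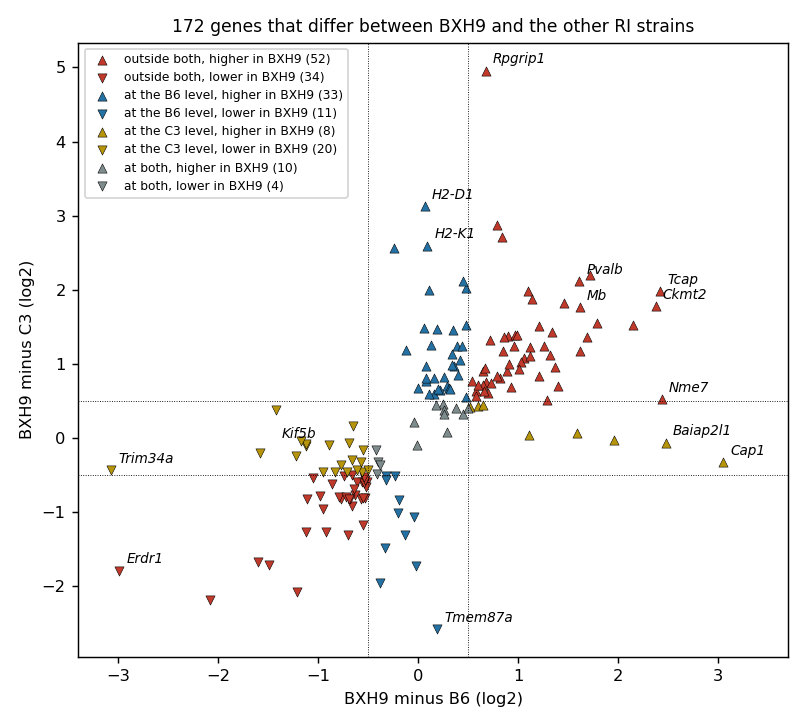
Each symbol is 1 of the 172 genes that differed between BXH9 and the other RI strains. The axes give BXH9 minus B6 and BXH9 minus C3 on the log2 scale, dotted lines mark the margin of 0.5, and upward triangles are genes higher in BXH9. Muscle genes such as Mb, Ckmt2 and Tcap lie at the upper right, H2-D1 and H2-K1 lie on the B6 line, and Cap1 and Trim34a lie near the C3 line.

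At the B6 level lay the class I histocompatibility genes, which encode the molecules that present peptides to T cells. H2-D1 had 8368 and 10117 in BXH9, against a lowest value of 881.9, a median of 4676 and a highest of 13593 in the other RI strains, 8824 and 8797 in B6, and 1086 and 985.2 in C3. The other RI strains fell into 2 levels: BXH4, BXH8, BXH10 and BXH19 were with BXH9 and B6, and BXH2, BXH6, BXH7 and BXH14 were near C3. The difference from the mean of the other RI strains was 1.47 (SE 0.16, limma adjusted p = 2.82e-05). H2-K1 had the same arrangement, with 8997 and 9600 in BXH9 against 1506 to 14053 in the other RI strains, and a difference of 1.06 (SE 0.12, limma adjusted p = 9.82e-05). The 9 probe sets listed for H2-D1 did not move together: their differences ran from -2.95 to 3.02, and the mean over all of them gave 0.16 (adjusted p = 0.505). Such probe sets match near-identical class I genes and their alleles, so the share of each gene in them is uncertain. Of the class I list, 2 of 10 tested members were higher, and these were H2-D1 and H2-K1.

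Pttg1 encodes securin, which restrains the separation of sister chromatids until anaphase. Its signal was 4957 and 4641 in B6, and 1062 and 2514 in C3. In BXH9 it was 7396 and 6068, against 957.3 to 6204 in the other RI strains. BXH4, BXH7 and BXH10 shared this high level, and both other probe sets of the gene were also higher, by 0.99 and 1.94. Its difference was 1.61 (SE 0.21, limma adjusted p = 0.000248). Gprc5b, an orphan G-protein-coupled receptor, was low in BXH9 at 102.6 and 133.2, as in B6 (123.5 and 117.9), against 97.9 to 430.9 in the other RI strains and 275.4 and 247.8 in C3. BXH2, BXH7 and BXH19 were as low as BXH9, and the other 5 strains were above C3. The difference was -1.04 (SE 0.13, limma adjusted p = 0.000211). Rpgrip1, a protein of the connecting cilium of photoreceptors, had 2542 and 2166 in BXH9, against 72.8 to 2653 in the other RI strains, 1547 and 1392 in B6, and 42.2 and 83.5 in C3. BXH6, BXH7 and BXH10 shared the high level, and the other 5 strains were below 180. The difference from the other RI strains was 2.80 (SE 0.24, limma adjusted p = 2.7e-06). By the margin it counted as outside both progenitors, 0.67 above B6, but that difference did not pass the test (adjusted p = 0.342). The other probe sets of Rpgrip1, all dim, gave differences from -0.63 to 0.26.

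At the C3 level lay several genes that were low in BXH9. Kif5b, the heavy chain of kinesin-1, had 938.5 and 903.4 in BXH9, against a lowest value of 1640, a median of 1907 and a highest of 2278 in the other RI strains, 1975 and 2387 in B6, and 1184 and 1014 in C3. BXH9 was the only RI strain at the C3 level, and its 2 arrays were below all 22 other arrays. The difference was -1.06 (SE 0.11, limma adjusted p = 1.65e-05). A second probe set of Kif5b gave -0.96, and the other 3 gave differences between -0.08 and 0.33, so that the mean over its 5 probe sets gave -0.31 (adjusted p = 0.222). Trim34a, a member of the TRIM family of antiviral proteins, had 65.3 and 126.6 in BXH9, against 26.6 to 1141 in the other RI strains, 995.7 and 792.5 in B6, and 125.6 and 133.7 in C3. BXH4, BXH6, BXH8 and BXH10 were as low. Its difference of -1.41 had a limma adjusted p of 0.0271, and a second, dimmer probe set gave 1.02. Tmem71, a transmembrane protein of little known function, had 86.9 and 118.5 in BXH9, against 71.6 to 558.4, with BXH6 and BXH19 also low. Its difference was -1.36 (SE 0.18, limma adjusted p = 0.00031).

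Nme7, a nucleoside diphosphate kinase family member found at centrosomes and cilia, was the called gene of smallest p. It had 1454 and 1478 in BXH9, against 238.7 to 1310 in the other RI strains, 247.8 and 269.6 in B6, and 1068 and 959.5 in C3. BXH6 and BXH14 shared a high level and the other 6 strains were near B6, and BXH9 was above all 22 other arrays. The difference was 1.85 from the other RI strains (SE 0.13, limma adjusted p = 2.42e-07). BXH9 lay 0.53 above C3, which did not pass the test (adjusted p = 0.109).

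Erdr1, a gene at the end of the X and Y chromosomes first described in leukaemia cells, was among the genes farthest below both progenitors. It had 358.6 and 310.3 in BXH9, against a lowest value of 298.6, a median of 1164 and a highest of 2320 in the other RI strains, 3832 and 1991 in B6, and 1124 and 1259 in C3. BXH4 and BXH7 were as low as BXH9, and the other 6 strains were at 949 or above. The difference was -1.46 from the other RI strains (SE 0.20, limma adjusted p = 0.00031), -2.99 from B6 (adjusted p = 1.14e-06) and -1.79 from C3 (adjusted p = 0.000618).

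**Figure D4:**
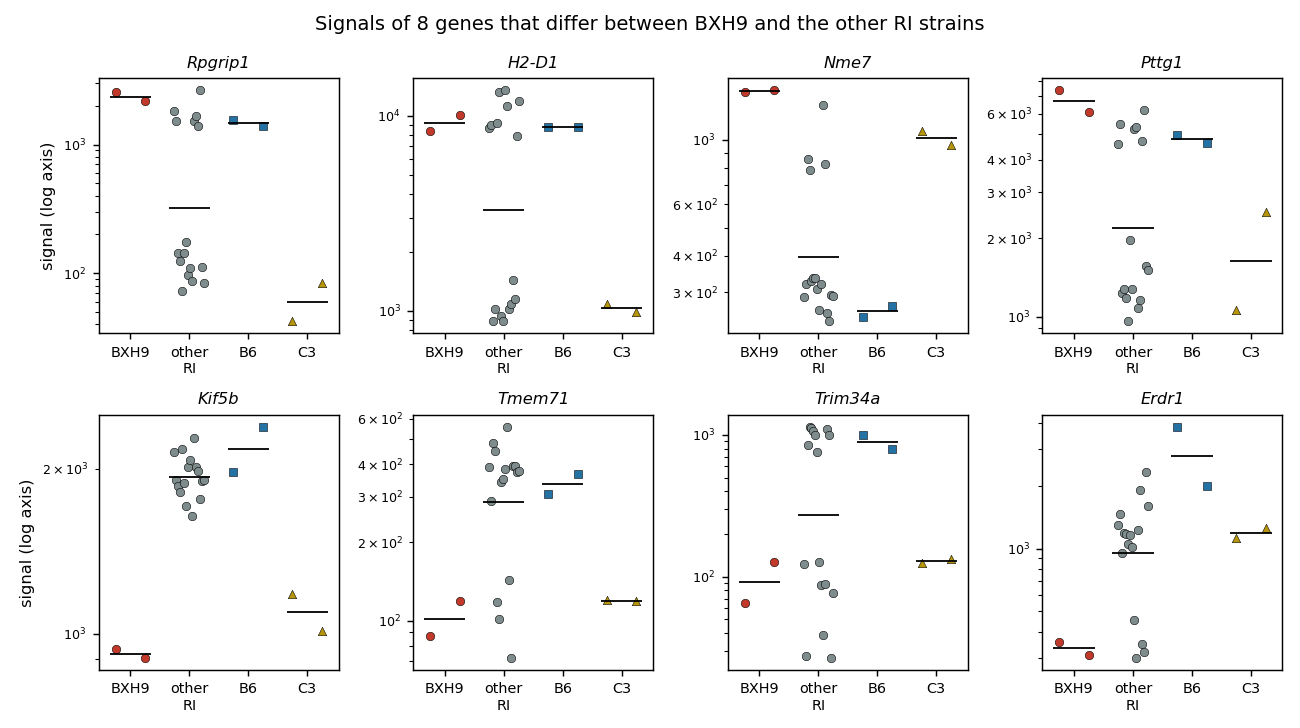
Each panel shows 1 gene on a log axis of signal, each point is 1 array, and the bar is the mean on the log2(signal + 16) scale. The other RI arrays fall into 2 levels for Rpgrip1, H2-D1, Pttg1, Tmem71, Trim34a and Nme7. For Kif5b the BXH9 arrays (938.5 and 903.4) lie below all other RI arrays, and for Erdr1 they lie with the lowest of them.

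Gm13889, a gene model without a known role, lay farthest below the nearer progenitor. It had 114.4 and 290.1 in BXH9, against 209.4 to 822.3 in the other RI strains, 841.4 and 817.5 in B6, and 945.5 and 836.1 in C3. Its difference from the other RI strains was -1.12 (SE 0.26, limma adjusted p = 0.0316) and -0.50 without BXH9-1. The mean of its probe sets gave -0.65 for this difference. Against B6 and C3 the gene differed by -2.08 and -2.18, so the other RI strains also averaged below both progenitors. Il1r1, the signalling receptor of interleukin-1, had 78.2 and 139.7 in BXH9, against 70.1 to 535.9 in the other RI strains, 302.2 and 349.1 in B6, and 402.5 and 359 in C3. Its difference was -1.10 from the other RI strains (SE 0.18, limma adjusted p = 0.00156) and -0.74 without BXH9-1. Igfbp2, an insulin-like growth factor binding protein expressed in alveolar type 1 cells, had 1292 and 1863 in BXH9, against 1192 to 5361 in the other RI strains. It was the only one of 9 tested members of the alveolar type 1 list to pass, at -0.64, and it was at -0.38 without BXH9-1 (adjusted p = 0.748). Asf1b, a histone chaperone of dividing cells, had 148.3 and 191.9 in BXH9, below all 16 other RI arrays (195 to 482.8). Rasl11b, a small GTPase of the Ras superfamily, had 616.2 and 665.6, also below all 16 (716.9 to 1639). Their differences were -0.79 and -0.68.

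The called gene with the lowest difference was Zbtb16, a transcription factor known to be induced by glucocorticoids. It had 148.1 and 115.8 in BXH9, against a lowest value of 139.8, a median of 764.2 and a highest of 3145 in the other RI strains. Both BXH7 arrays and 1 BXH14 array were near the BXH9 level. The difference was -2.19 (SE 0.55, limma adjusted p = 0.0455), a second probe set gave -2.29, and the call was lost under 23 of 36 alternatives. It was the only one of 16 tested members of the glucocorticoid list to pass, and the list's median difference was 0.01. Marco, a scavenger receptor of alveolar macrophages, had 29.9 on BXH9-1 and 177.1 on BXH9-2, against 17.5 to 512.9 in the other RI strains. Its difference was -1.33 (limma adjusted p = 0.0477), and without BXH9-1 it was -0.29. The call of Marco was lost under 26 of 35 alternatives. Krt79, a keratin also used as a marker of alveolar macrophages, had 489.5 and 484.2 in BXH9, against 445.6 to 1518, and lay at the B6 level. These were the 2 of 11 tested alveolar macrophage genes that fell, and the median difference of that list was -0.08.

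To place BXH9 between its progenitors gene by gene, the 75 genes that differed between C3 and B6 by at least 1 on the log2 scale were used (0.906% of those tested, by limma at an adjusted p below 0.05). The position is (BXH9 - B6)/(C3 - B6), so that 0 is the B6 level and 1 the C3 level. The B6 and C3 arrays both chose these genes and set the scale, and the positions carry no test. BXH9 was nearer B6 for 43 genes and nearer C3 for 32 (42.67%). The median position was -0.02 among the genes nearer B6 and 0.98 among those nearer C3, and 12 genes lay between 0.3 and 0.7. Without C3-2 only 55 genes were used and 21 were nearer C3. Of the 75 genes, 32 also differed between BXH9 and the other RI strains.

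Of 54 pairs of genes next to each other in this set on a chromosome, 29 were on the same side (53.7%) and 25 were not. With 43 genes nearer B6 and 32 nearer C3, many neighbours share a side in any order, and the share this alone gives was not computed. The pairs and runs therefore do not show inherited blocks. The longest runs on one side are given here as a description. On chromosome 15 Tmem71, St3gal1, Apobec3 and Phf5a were all at the C3 level, with positions from 0.92 to 1.15, and Krt79 after them was at the B6 level (-0.01). St3gal1, a sialyltransferase, had 117.7 and 123.1 in BXH9, against 116.2 to 346.5 in the other RI strains. Apobec3, a deaminase that restricts retroviruses, had 287.3 and 266.9, against 210.5 to 874. On chromosome 6 Cftr, Gpnmb, Igkv8-30, Ggcx and Bhlhe40 alternated between the C3 and the B6 side, and Rad51ap1, Smim10l1, Hebp1 and Sspn after them were at the B6 level, with positions from -0.26 to -0.01. Sspn, sarcospan of the dystrophin complex, had 1032 and 701.1 in BXH9, against 255.7 to 817.1 in the other RI strains, and was higher by 0.76 (SE 0.12, limma adjusted p = 0.00118). It was higher by 0.49 without BXH9-1 (adjusted p = 0.211), and a second, dim probe set gave 0.16, so that the mean of both was 0.46 (adjusted p = 0.0588). On chromosome 3 Exosc9, Gbp2b, Mcoln3 and Cryz were nearer B6, from -0.31 to 0.29.

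Chromosome 4 changed sides along its order: Alad, Rps6 and Cap1 were nearer C3 (0.99, 0.89 and 0.90), and Pink1 and Gnb1 after them were nearer B6 (0.40 and 0.25). Cap1, a regulator of actin, had 2436 and 3068 in BXH9, against 200.3 to 3686 in the other RI strains, 352 and 285.9 in B6, and 3402 and 3441 in C3. Only BXH8 and BXH10 were at the low level. Alad, an enzyme of haem synthesis, had 1567 and 1386 in BXH9, against 296.2 to 1676. On chromosome 5 Srd5a3, Jchain and Baiap2l1 were nearer C3. Baiap2l1, a BAR-domain protein of the actin cortex, had 3666 and 3494 in BXH9, against 574.5 to 5706 in the other RI strains, 560.3 and 713.1 in B6, and 4183 and 3330 in C3. All 3 genes of this set on chromosome 1, Wdfy1, Nme7 and Ifi209, were nearer C3. On chromosome 17 Glo1, H2-K1, Tnxb, H2-D1 and Gabbr1 were nearer B6, with Lst1 between them at 0.63. Glo1, glyoxalase of the methylglyoxal pathway, had 900.7 and 1059 in BXH9, against 938.2 to 2881 in the other RI strains, and was lower by 0.68 on the log2 scale (difference -0.68, SE 0.11, limma adjusted p = 0.00118).

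Only 3 genes lay outside the range from -0.5 to 1.5, all beyond C3: Dbp at 2.58, Erdr1 at 2.48 and Nr1d2 at 1.61. Dbp and Nr1d2 are circadian genes, and neither differed from the other RI strains past the threshold. Without BXH9-2 there were 6 such genes, and without C3-1 there was 1. Nnt, the mitochondrial transhydrogenase that is disrupted in C57BL/6J, was not low in BXH9. It had 1310 and 1228 in BXH9, against 812 to 1237 in the other RI strains, 531.4 and 464.4 in B6, and 1005 and 941 in C3.

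**Figure D5:**
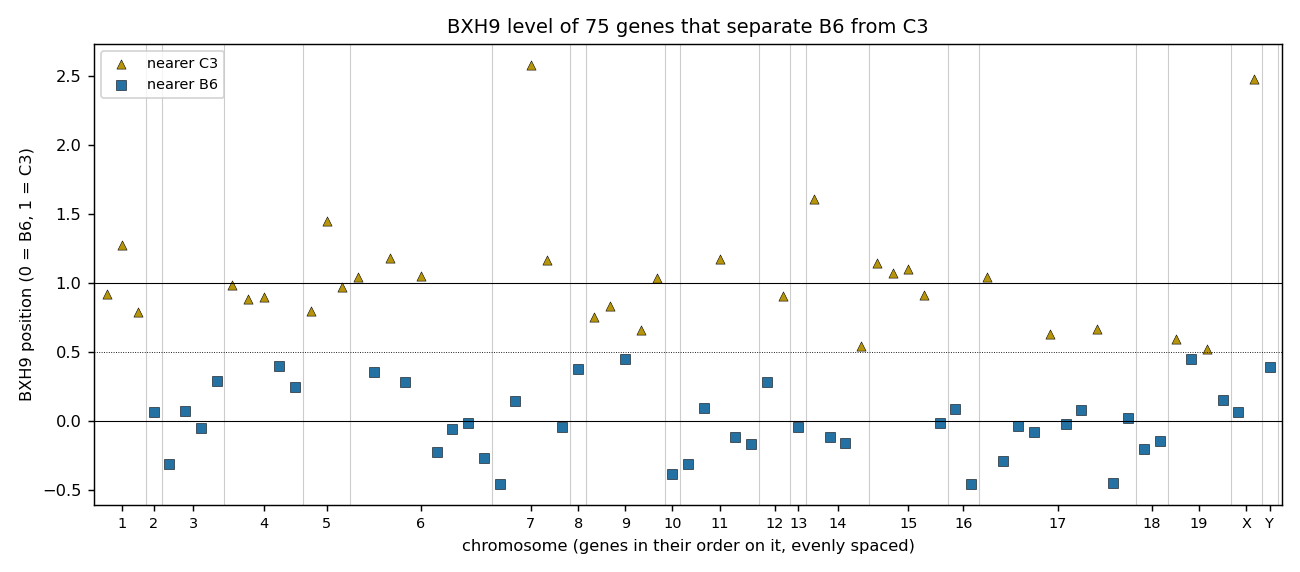
Each point is 1 of the 75 genes that separate C3 from B6, in their order along each chromosome and evenly spaced. The vertical axis is the position of BXH9, with 0 at the B6 level and 1 at the C3 level. 43 genes are nearer B6 and 32 nearer C3, and of 54 neighbouring pairs on a chromosome 29 are on the same side and 25 change side.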

How the data were processed

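The authors' deposited table holds linear intensities (signals) of 22690 probe sets on each array, from Trizol RNA amplified to biotin-labelled cRNA, per the labels' protocols. How they were computed and scaled is not given in the sources used here. After 2 percent of values were trimmed from each end, the mean was 500.11 to 500.13 on every array, so the deposited signals carry a common scaling and were not normalized again. With 2 arrays per strain, their number limits the precision.

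Probe sets with 1 gene symbol (20393) were used, 691 had several symbols and 1606 were controls or unlisted. The brightest probe set stood for each gene, and it was tested if its mean was in the top 60 percent of probe sets (a signal of 168.8), which left 8281 genes. log2(signal + 16) was fitted in limma 3.58.1 (R 4.3.3, eBayes with a mean-variance trend) with 12 strains of 2 arrays and 12 residual degrees of freedom. P-values were adjusted by Benjamini-Hochberg over all tested genes within each contrast. The fit was tested on simulated data with independent noise for each gene, so that test does not cover shifts that many genes share on an array. 38 gene lists were described by counts and medians.

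Genes named are the 12 largest and 12 lowest called differences, up to 8 of each direction beyond both progenitors, up to 4 of each level class, up to 4 of smallest p of each list described, the members of the 6 longest runs of positions, and 10 fixed genes: Nnt, H2-D1, H2-K1, Glo1, Cap1, Rpgrip1, Tlr4, Irf8, Tnnt3 and Top2a. Others named to account for a count, a class or an array's difference (such as Nppa, Myh6, Dbp and Pdxdc1) were chosen after their values were seen. Members and lists were chosen with earlier results of these data known. Alternatives were other scalings, offsets, filters, probe set rules and fits, muscle covariates, the replicate number as a block, other margins and leaving out each array.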

Additional observations from a re-analysis of the deposited data

How the results depend on the processing

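Quantile normalization, the offsets 1 and 64, no filter, the top 40 percent of probe sets, eBayes without trend and the fit on only the arrays compared left the counts against the other RI strains (103 higher, 69 lower) within 1.5 times. Median centring gave 45 lower genes and 5 lower than both progenitors, and the mean of all probe sets gave 110 and 20. Fitting only the arrays compared gave 4 lower than both progenitors and 1 gene with a position beyond the progenitors, and the top 40 percent of probe sets left 46 genes for positions. The skeletal covariate gave 30 higher and 16 lower genes, and 14 higher and 4 lower than both progenitors. The skeletal and cardiac covariates together, chosen after seeing the data, gave 10 and 4, and 3 and 1, and turned the difference of Steap3, which was -1.41, to 0.088 (adjusted p = 1.00). Called skeletal members were then 3 with the first covariate and 2 with both, and cardiac members 1 and 0. Cardiac members were 2 with median centring and 2 with no filter. The cause of these shifts was not tested. A margin of 0.25 gave 26 genes at the B6 level, 15 at the C3 level, 2 at both and 2 between, and a margin of 1 gave 89 at both and 26 outside. With 1 array left out in turn, the counts ran from 17 to 117 higher and 6 to 100 lower, from 6 to 31 and from 1 to 16 beyond both progenitors, from 4 to 11 skeletal and 1 to 11 cardiac members, and from 55 to 77 genes with a position, 21 to 33 nearer C3 and 1 to 6 beyond the progenitors. The lone array of a strain is then assumed to vary like the other strains. With the replicate number as a block, 105 genes were higher and 79 lower, and 29 and 12 beyond both progenitors. Same-numbered arrays share only a number: the deviations of the BXH9 arrays correlated with those of other strains between -0.167 and 0.189. Counts of list members and positions under alternatives were added after seeing the data. Signals near background limit dim genes, and 17 of 72 called genes with further probe sets had an opposite median there.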

Other observations

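Lists not described above held few called genes. Of 18 tested genes of fibroblasts and matrix, Lox, which crosslinks collagen and elastin, had 2160 and 2357 in BXH9, against 796.3 to 2608 in the other RI strains, and was higher by 0.66 (SE 0.14, limma adjusted p = 0.0178). The mean of its probe sets gave 0.43 (adjusted p = 0.0636). Dcn, decorin, was higher by 0.55 (adjusted p = 0.0476), a call lost under 24 of 36 alternatives. Fbln5, a protein of elastic fibres, had 1483 and 1876 in BXH9, against 1867 to 3125, and its difference was -0.55 (adjusted p = 0.0207). Single members passed in the heat shock list (Hspb1, 0.52), the unfolded protein response list (Hsp90b1, 0.45), the cholesterol and fatty acid list (Idi1, 0.47), the NRF2 and glutathione list (Aox1, 0.48) and the lipid list (Cpt1a, -0.52). The other probe sets of Cpt1a gave 0.21 and -0.01, and the mean of all gave -0.11 (adjusted p = 0.761). With the mean of all probe sets, Hsp90b1 (0.32, adjusted p = 0.0641) and Idi1 (0.44, adjusted p = 0.058) were not called either. Of 36 alternatives, the call was lost under 25 for Idi1, 25 for Aox1, 15 for Hspb1, 5 for Hsp90b1 and 4 for Cpt1a.

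No tested member passed in the lists of smooth muscle, adipose tissue, monocytes and dendritic cells, neutrophils, B and plasma cells, T cells, NK cells, red cells, alveolar type 2 cells, club cells, ciliated cells, endothelium, mesothelium or squamous epithelium. The same held for the circadian, immediate early, interferon, class II, xenobiotic, cell cycle, complement, ribosomal, proteasome, chemokine and hypoxia lists. Of 20 tested cell cycle genes the median difference was -0.22, and of 16 endothelial genes it was -0.16. BXH9 had the lowest mean of the 9 RI strains for both lists, and also for the chemokine list (median difference -0.16). Cell cycle means were 8.13 on BXH9-1 and 8.32 on BXH9-2, against a lowest value of 8.16 on the other RI arrays. Endothelial means were 10.69 and 10.75, against a lowest value of 10.71. In each of these lists BXH9-1 lay below every other RI array and BXH9-2 lay within their range. The ranks carry no test. Irf8, Tlr4 and Top2a differed by -0.16, -0.29 and -0.13, with limma adjusted p-values of 0.677, 0.294 and 0.804.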
